A study of Arabidopsis thaliana with 4 samples.

Results

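Stand-alone long introns of Arabidopsis nuclear RNA were described, defined as introns of 500 nt or more that overlapped no other listed intron of the same gene. An intron was taken as the stretch between the 50 nt of exon that each entry carries on either side, and entries of the chloroplast and mitochondrial genomes were left out. Of 43339 nuclear introns with SHAPE reactivities in at least 1 condition, 27874 stood alone and 815 of these, 1.88% of all, were 500 nt or longer. They lay in 776 genes, 37 of which held more than 1, so introns of these genes share a transcript and are not independent. Values were at hand for 649 long introns in the deproteinized condition and 480 in vivo, with 314 in both. The interior was the part more than 100 nt from both ends.

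The material was nuclear RNA of Col-0 seedlings, the wild-type reference accession of Arabidopsis, after 5 days of growth. In the deproteinized condition nuclei were isolated and lysed and proteins were removed before the RNA met 100 mM NAI, with an untreated control of the same preparation. In vivo, whole seedlings were treated with 100 mM NAI, with a control that received the solvent DMSO in its place. All cell types of the seedling were pooled, and each condition is 1 profile in which 2 biological replicates had been merged, so no spread between plants or libraries can be given and no test was made. Every error below is the SD over introns, which are not replicates of a condition. Read depth per intron is not known from the deposited scores, so no counting error could be computed.

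NAI acylates the 2′-hydroxyl of flexible nucleotides, and reverse transcription stops next to the adduct, so a high SHAPE reactivity marks a nucleotide that is mostly unpaired and accessible. Plant introns are in general short and rich in U. The spliceosome recognizes the 5′ splice site by pairing with U1 snRNA, the branch site by pairing with U2 snRNA and the polypyrimidine stretch and AG at the 3′ end, and in a long intron these sites lie far apart, with many sequences between them that look like them.

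Examples of both kinds of site are shown, since the results below set real sites against look-alikes inside the same class of introns. Sequences are from the RefSeq genome TAIR10.1, whose coordinates are those of TAIR10, with T standing for U. Capitals mark AGGTAA, in which the A and first G are the last exon nucleotides at a real site, or the branch motif CTNAN, with A or G at the first N and C or T at the second, in which the A at the fourth place is the branch nucleotide. Both pairs of 5′ splice sites were taken from introns that hold AGGTAA at the junction and again inside. One, of 1006 nt, belongs to AT5G64880, on the plus strand (chr5:25932621-25932650 for the splice site and chr5:25933233-25933262 for the copy), the other of 1185 nt to AT4G28060, on the minus strand (chr4:13945575-13945604 and chr4:13944844-13944873).
AT5G64880 5′ splice site: tacagtctcatcAGGTAActctaatactat
AT5G64880 copy inside: ttagctttctttAGGTAAcgaaccgaggat
AT4G28060 5′ splice site: ccatggaggacgAGGTAAtcttacatcttt
AT4G28060 copy inside: tcgtgggttaagAGGTAAgggtcaaatccg
In AT5G64880 the last exon nucleotide scored 1 in the deproteinized condition and 1 in vivo, and its match in the copy 0.436 and 0.198. In AT4G28060 it scored 0.938 in the deproteinized condition but 0.0882 in vivo, and its match in the copy 0.187 and 0.235. The last exon nucleotide thus exceeded its copy in 3 of these 4 readings. In vivo each copy had the same score at −1 and −2, 0.198 in AT5G64880 and 0.235 in AT4G28060. These may be the intermediate score, described below, that recurs within an entry, so they may not be readings of the site itself.

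The 3′ ends of 3 of the longest introns with the motif show the branch motif with the stretch up to the final AG, in NRT1.1, the dual-affinity nitrate transporter (chr1:4108385-4108425, plus strand), in AT1G80610, an uncharacterized protein (chr1:30301984-30302016, minus strand), and in AT2G25970 (chr2:11072831-11072858, minus strand).
NRT1.1: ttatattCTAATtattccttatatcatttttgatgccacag
AT1G80610: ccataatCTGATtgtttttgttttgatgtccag
AT2G25970: atttattCTAACgatttggtttatgcag
The branch A lay 31 nt before the intron end in NRT1.1, 23 nt in AT1G80610 and 18 nt in AT2G25970. It scored 1 in both conditions in NRT1.1 and in AT2G25970, where the copies of the motif inside averaged 0.445 and 0.428 in the deproteinized condition and 0.276 and 0.276 in vivo. In AT1G80610 it scored 0.267 in the deproteinized condition and 0.442 in vivo, and its 5 copies inside averaged 0.739 and 0.324. A motif at the 3′ end was therefore not always the most reactive one of its intron.

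The long introns measured 664 nt in the median (quartiles 566 and 837.5 nt, range 500 to 4983 nt), with 523 under 750 nt, 159 of at least 750 but under 1000 nt and 133 of 1000 nt or more. The strand was known for 811, of which 779 ran from GT to AG and 24 from GC to AG. Their interiors were 37.5% U, 29.2% A, 18.2% G and 15.1% C on average. TAIR10.1 annotates 737 of them as introns. Of these, 332 (45.0%) were the first intron of every transcript that holds them, against 3263 of 26047 shorter stand-alone introns (12.53%). Long introns lay in a 5′UTR in 8.01% of cases, against 2.77% of shorter ones, and in a 3′UTR in 3.799%, against 1.03%. Most, 86.7%, interrupted the coding sequence, as did 93.6% of the shorter introns.

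An intron of one transcript can be exon in another. The interior held no annotated exon in 573 long introns, an exon of the same gene in 198 and only an exon of another gene in 40. Exons of another gene were counted on either strand, so some may be antisense to the intron. Among the 198, the exon of the same gene covered at least 50% of the interior in 150. Of the 74 introns with a strand that TAIR10.1 does not annotate as introns, 69 were among the 198. G+C content averaged 32.5% in interiors without an exon and 35.6% in those with an exon of the gene itself. Values by group are given below for the last exon nucleotide and for the likeness of the 2 conditions. Other results pool the groups, apart from the alternative settings without exons inside.

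The authors had normalized the reactivities to between 0 and 1. A scaling within each entry was inferred here from the shares below, and it bears on every value that follows. In the median long intron 5.07% of nucleotides had the score 0 in the deproteinized condition and 5.08% in vivo, and 5.07% and 5.08% had the score 1. A single intermediate score recurred at a median of 23.99% of nucleotides in the deproteinized condition and 32.9% in vivo, against 27.4% and 36.4% in mid-length introns, those of at least 250 but under 500 nt that also stand alone. No score was given for 1.71% of nucleotides in the deproteinized condition and 6.97% in vivo. Levels are thus relative to the rest of the same entry, and a level of 1 marks the highest class of that entry, not a fixed amount of modification.

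The interior and the first 50 nt of long introns were the least reactive parts of the entry, and the level was even along the interior. Over introns with at least 200 scored interior nucleotides, it averaged 0.376 ± 0.0356 in the deproteinized condition (SD, n = 644 introns) and 0.355 ± 0.0499 in vivo (SD, n = 476). The corresponding part of mid-length introns, with at least 40 scored nucleotides, averaged 0.355 ± 0.0506 (n = 2108) and 0.341 ± 0.0586 (n = 1476). When the interior was divided into 10 equal parts along its length, the means stayed between 0.369 and 0.380 in the deproteinized condition and between 0.3501 and 0.366 in vivo.

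Reactivity was higher at the 3′ end than at the 5′ end of the intron. The first 50 nt averaged 0.378 ± 0.0598 in the deproteinized condition and 0.366 ± 0.0785 in vivo, close to the interior, whereas the last 50 nt averaged 0.420 ± 0.0633 and 0.405 ± 0.0825. The exon upstream averaged 0.408 in the deproteinized condition and 0.399 in vivo. The exon downstream averaged 0.462 and 0.439, the highest of the 5 regions. The paper scored pre-mRNA across the 5′ splice site and in the intron without its final AG. It states that reads starting just past the 3′ splice site could come from spliced or unspliced RNA. Whether the level of the downstream exon is that of unspliced RNA is therefore not known. Interior minus last 50 nt was −0.0439 ± 0.0669 in the deproteinized condition (n = 639) and −0.0485 ± 0.0865 in vivo (n = 454), and the interior was the more reactive part in only 27.5% and 26.7% of introns. In mid-length introns the same difference was −0.0413 ± 0.0653 and −0.0386 ± 0.0823. The SD over introns exceeded the mean difference in each case. In 25-nt steps, the rise was seen in the last 50 nt of the intron, with 0.410 and 0.431 in the deproteinized condition and 0.390 and 0.418 in vivo, while the step before had 0.373 and 0.371.

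**Figure D1:**
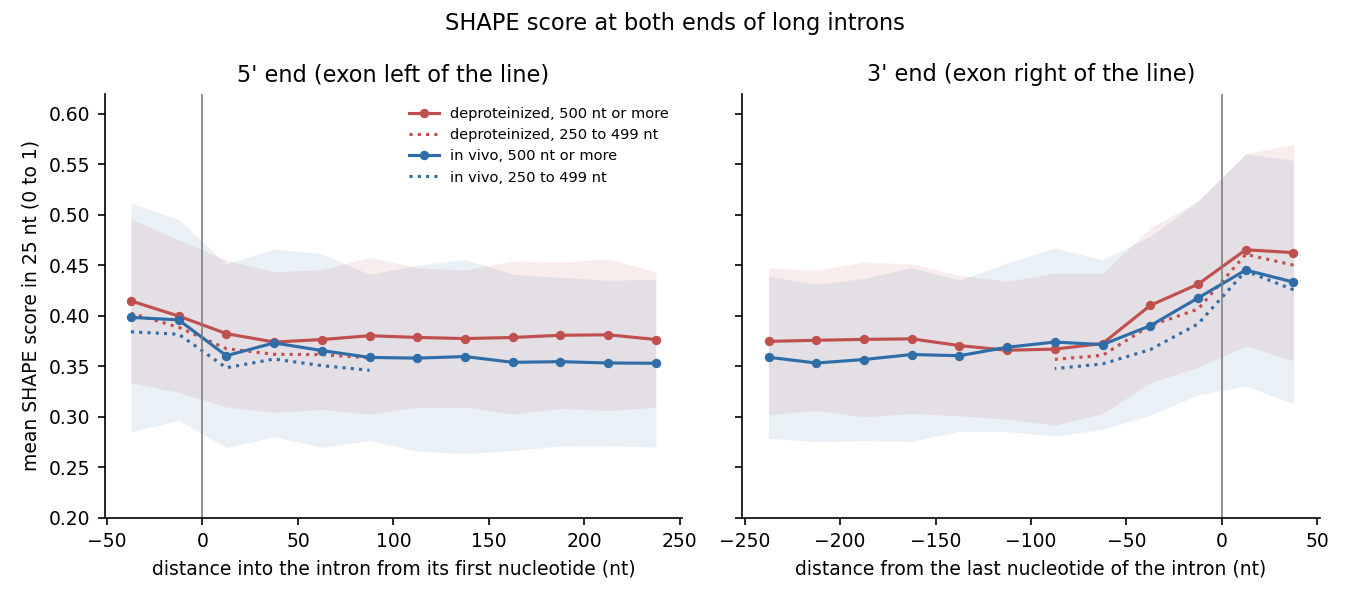
Mean SHAPE score in 25-nt steps from the 5′ end (left) and to the 3′ end (right) of stand-alone introns of 500 nt or more (solid lines, shading ± 1 SD over introns) and of mid-length introns (dotted lines), for the deproteinized condition (red) and in vivo (blue); the y axis starts at 0.2. Scores in the intron stay near 0.37 in the deproteinized condition up to 50 nt before the 3′ end and reach 0.465 in the first 25 nt of the downstream exon, and shading of both conditions overlaps throughout. Whether the downstream exon shows unspliced RNA is not known.

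Nucleotides differed little in level. In the deproteinized condition U lay 0.0121 ± 0.0154 above its own interior (SD, n = 644), with A at 0.00182, G at −0.00931 and C at −0.0249 ± 0.0268. In vivo A lay 0.0155 ± 0.0200 above the interior (SD, n = 476) and U 0.00548 ± 0.0150 above it, with C at −0.0324 ± 0.0246 and G at −0.00971. C was above its interior in 16.6% of introns in the deproteinized condition and 9.45% in vivo, whereas U was above it in 79.97% and 65.5%. C was therefore the least reactive nucleotide in both conditions, and the most reactive one was U after deproteinization and A in vivo.

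The last exon nucleotide, position −1 of the 5′ splice site, was the most reactive position around the junction. It averaged 0.702 ± 0.399 in the deproteinized condition (SD, n = 635 introns) and 0.708 ± 0.370 in vivo (SD, n = 438), 0.325 ± 0.403 and 0.353 ± 0.373 above the interior. The score was exactly 1 in 55.9% of long introns in the deproteinized condition and 52.3% in vivo, whereas 4.12% and 4.14% of all interior nucleotides had that score. At the other end of the scale, it was 0 in 15.1% and 7.53%. Values at −1 thus gathered at both extremes, and its mean describes few single introns. The paper assigns a stop to the nucleotide just upstream of the start of a read. Position −1 is therefore scored from reads that start at the first intron nucleotide and need not hold any exon. Whether the level at −1 is that of unspliced RNA alone is not known. Position −2 averaged 0.533 ± 0.325 in the deproteinized condition (n = 633) and 0.448 ± 0.298 in vivo (n = 434), and the first intron nucleotide 0.359 and 0.357.

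Each position was also set against its flanks at the same junction, the exon nucleotides from 3 to 20 nt upstream and the first 20 nt of the intron. Position −1 exceeded the flanks in 467 of 639 long introns in the deproteinized condition (73.1%, against 67.6% of all nuclear introns) and in 332 of 442 in vivo (75.1%, against 60.8%). Position −2 did so in 415 of 638 in the deproteinized condition (65%, against 56.1%) and in 240 of 438 in vivo (54.8%, against 44.8%). Each share of long introns was above that of all nuclear introns, and no test was made of this difference. Mid-length introns had nearly the same shares at −1, 73.6% in the deproteinized condition and 74.0% in vivo. At −2 their shares were 61.6% and 51.0%. The excess at −1 was therefore not particular to introns of 500 nt or more.

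The level at −1 differed between entries that are annotated introns and those that are not. Among long introns that TAIR10.1 annotates, −1 averaged 0.724 ± 0.399 in the deproteinized condition (n = 587) and 0.734 ± 0.367 in vivo (n = 401), with a score of 1 in 59.8% and 56.4%. Among those it does not annotate, −1 averaged 0.432 ± 0.286 (n = 48) and 0.434 ± 0.288 (n = 37), with a score of 1 in 8.33% and 8.11%. The last 50 nt showed the same contrast, since interior minus last 50 nt was −0.0115 in the deproteinized condition and −0.00919 in vivo in entries without the annotation. By content of the interior, −1 averaged 0.583 in the deproteinized condition and 0.570 in vivo with an exon of the gene itself inside, 0.761 and 0.817 with an exon of another gene only, and 0.733 and 0.741 with no exon.

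Real 5′ splice sites were then compared with the same letters inside the introns. AGGTAA, searched on the transcript strand, stood at the junction of 105 of 811 long introns (12.9%, and 13.3% of 26993 shorter ones) and in the interior of 80 (9.86%). At the junction, −1 averaged 0.797 ± 0.363 in the deproteinized condition (n = 83 introns) and 0.731 ± 0.362 in vivo (n = 53). The matching G of the copies averaged 0.375 ± 0.244 (n = 63) and 0.313 ± 0.214 (n = 45), which is the interior's level of 0.376 in the deproteinized condition and below its 0.355 in vivo, and 1.45% of copies in the deproteinized condition and 3.92% in vivo had the score 1. At −2 the real sites averaged 0.578 in the deproteinized condition and 0.343 in vivo, and the copies 0.430 and 0.348. The contrast between these means thus lay at −1 in both conditions and at −2 in the deproteinized condition only. The real sites and the copies come mostly from different introns. The limit on reads that score −1, given above, holds for the real sites here as well.

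Few long introns held AGGTAA at both places. In the 9 of them with scores in the deproteinized condition, −1 averaged 0.976 at the junction and 0.453 in the copies, and the junction was higher in 88.9%. In vivo there were 4, with 0.479 and 0.209, and the junction was higher in 75%. At −2 the 9 introns had 0.514 at the junction and 0.470 in the copies, with the junction higher in 55.6%. In vivo the 4 had 0.235 and 0.326 at −2, with the junction higher in 25%.

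The branch motif gave a similar picture at the 3′ end. It stood 15 to 50 nt before the end of 240 of 811 long introns (29.6%, against 25.0% of the shorter ones) and inside the interior of 692 (85.3%), so copies outnumbered real ends by far, with 1473 copies in the introns of the deproteinized condition and 1026 in those in vivo. The A of the motif at the 3′ end averaged 0.622 ± 0.409 in the deproteinized condition (n = 202) and 0.681 ± 0.367 in vivo (n = 134), which was 0.209 ± 0.413 and 0.290 ± 0.380 above the nucleotides 3 to 10 nt on either side. It exceeded these flanks in 130 of 202 introns in the deproteinized condition (64.4%, against 60.9% of all nuclear introns with the motif) and in 97 of 134 in vivo (72.4%, against 59.1%). In mid-length introns the shares were 63.2% in the deproteinized condition and 64.8% in vivo. A motif match is not a mapped branch point, and matches that are not used as such may be among both counts.

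Inside the introns the same A had no such excess. Copies averaged 0.361 ± 0.172 in the deproteinized condition (n = 551 introns) and 0.364 ± 0.187 in vivo (n = 396), with differences of −0.0113 ± 0.177 and 0.0118 ± 0.184 from their flanks. A score of 1 stood at 45.0% of motifs at the 3′ end in the deproteinized condition and 45.5% in vivo, and at 3.31% and 5.09% of the copies. In the 167 long introns with both in the deproteinized condition, the A averaged 0.632 at the 3′ end and 0.386 in the copies, and it was higher at the end in 66.5%. In the 105 such introns in vivo it averaged 0.675 and 0.375, higher at the end in 71.4%. The nucleotide just before the branch A averaged 0.603 in the deproteinized condition and 0.440 in vivo, and the A alone stood out in vivo.

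**Figure D2:**
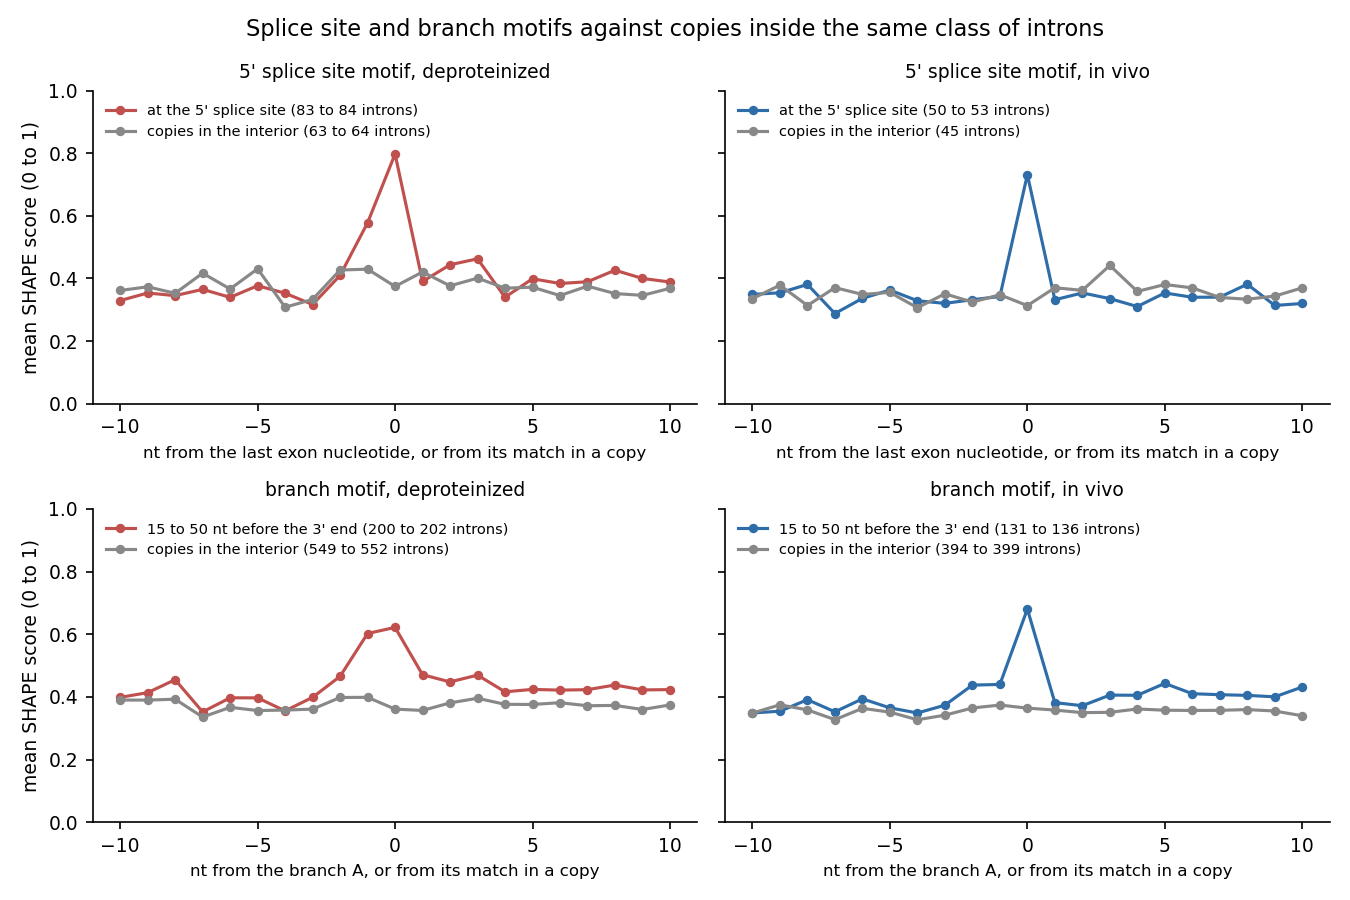
Mean SHAPE score (y axis, 0 to 1) at each nucleotide from 10 nt before to 10 nt after the last exon nucleotide of AGGTAA at the 5′ splice site (top) or the A of the branch motif (bottom), for motifs at the intron ends (red, deproteinized; blue, in vivo) and for copies inside long introns (grey); legends give the range of introns per position. The motifs at the ends peak at 0.797 and 0.731 (top) and at 0.622 and 0.681 (bottom), whereas the copies stay between 0.313 and 0.375 at these positions.

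Over stand-alone introns of all lengths, the 3 sites had higher mean scores the longer the intron. In classes that start at 0, 80, 120, 250 and 500 nt, −1 averaged 0.508, 0.579, 0.657, 0.694 and 0.702 in the deproteinized condition, and 0.406, 0.495, 0.654, 0.694 and 0.707 in vivo. Position −2 averaged 0.402, 0.410, 0.468, 0.519 and 0.532 in the deproteinized condition, and 0.348, 0.362, 0.412, 0.425 and 0.448 in vivo. The branch A averaged 0.512, 0.530, 0.584, 0.587 and 0.622 in the deproteinized condition, and 0.460, 0.518, 0.560, 0.585 and 0.681 in vivo. Long and mid-length introns differed by far less than the SD over introns, and most of the rise at −1 lay below 250 nt. Over the flanks, the rise was not seen at every step. There −1 averaged 0.172, 0.251, 0.314, 0.327 and 0.322 in the deproteinized condition, and 0.0696, 0.168, 0.317, 0.340 and 0.345 in vivo. From 120 nt on, −2 averaged 0.125, 0.152 and 0.152 over its flanks in the deproteinized condition, and 0.0750, 0.0714 and 0.0866 in vivo. The branch A averaged 0.216, 0.202 and 0.209 over its flanks, and 0.210, 0.228 and 0.290 in vivo. Within the long introns the order did not continue. Introns under 750 nt, under 1000 nt and of 1000 nt or more had means at −1 of 0.718, 0.672 and 0.671 in the deproteinized condition, and of 0.708, 0.757 and 0.643 in vivo. The share of nucleotides at the recurring score moved with length as well, with medians of 25.3%, 22.1% and 21.0% in the deproteinized condition and 34.3%, 32.1% and 30.3% in vivo for these 3 classes. Its part in the order by length was not tested.

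**Figure D3:**
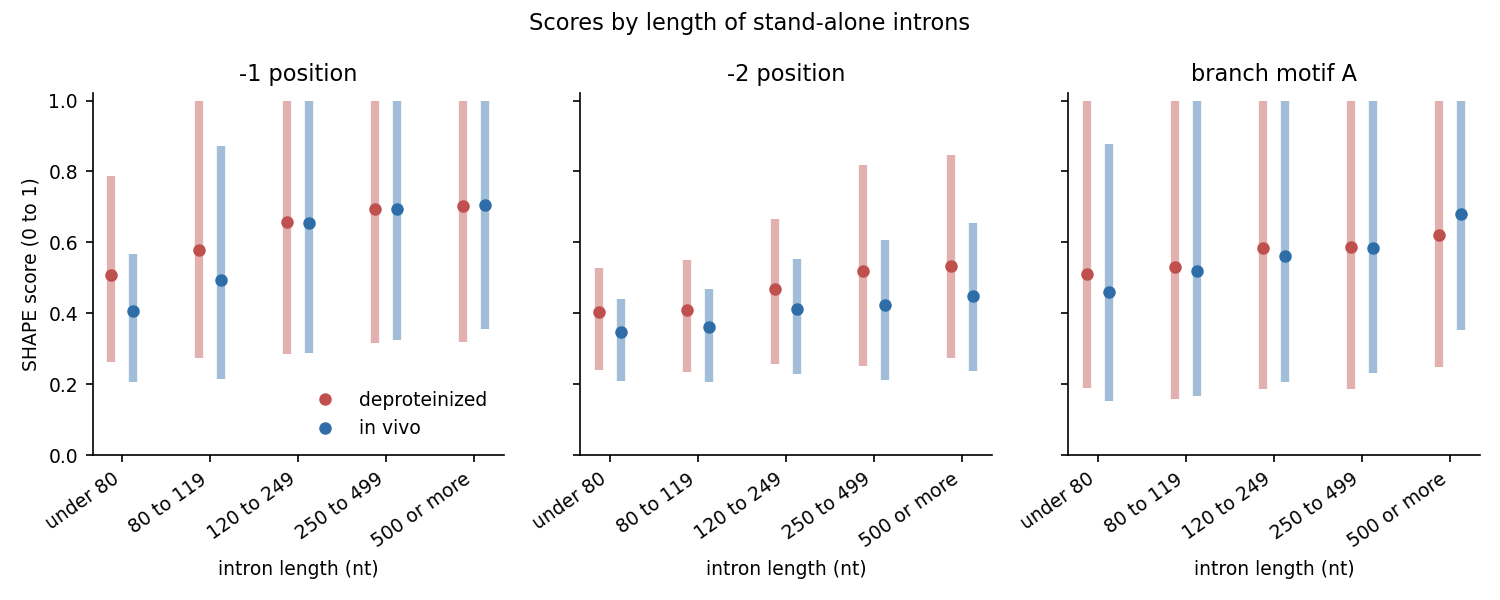
SHAPE score (y axis, 0 to 1) at position −1, position −2 and the A of the branch motif in 5 length classes of stand-alone introns (x axis, nt), for the deproteinized condition (red) and in vivo (blue); points are means over introns and bars run between the quartiles. Means at −1 are 0.508 and 0.406 under 80 nt and 0.702 and 0.707 at 500 nt or more, while the quartile bars overlap in all classes.

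The poly(A) signal AATAAA, the hexamer that the cleavage and polyadenylation machinery binds best, was found in the interior of 225 long introns (27.7%). Relative to the 10 nt on each side, it was 0.0346 ± 0.111 more reactive in the deproteinized condition (n = 187) and 0.0686 ± 0.161 in vivo (n = 110), and it was the more reactive part in 65.2% and 66.4% of introns. In mid-length introns the difference was 0.0377 and 0.04999. In the deproteinized condition the difference was 0.0436 in introns under 750 nt, 0.000452 in those of at least 750 but under 1000 nt and 0.0436 in those of 1000 nt or more. The SD over introns was larger than each of these means.

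To see whether AATAAA differed from other words of 6 nt, every hexamer with at least 50 occurrences in each condition was scored after subtracting, at each nucleotide, the mean of that nucleotide. There were 1803, and their means correlated between conditions with r = 0.654, a description across words that share nucleotides and introns. AATAAA stood at 0.0434 in the deproteinized condition, the 31st highest, and at 0.0469 in vivo, the 9th highest, where the SD over hexamers was 0.0181 and 0.0167. Related words were as high. TAATAA had 0.0559 and 0.0525, TAAGAA had 0.0692, the highest of all in the deproteinized condition, and 0.0465 in vivo, and AATAAG had 0.0423 and, the highest in vivo, 0.05997. Among words of 5 A and 1 U, the level differed with the place of the U. ATAAAA had 0.0406 in the deproteinized condition and 0.0280 in vivo, and AAATAA 0.0265 and 0.0356. TAAAAA had 0.0160 and 0.0128, AAAATA 0.0116 and 0.00446, and AAAAAT −0.00201 and −0.00125. AAAAAA, which holds no U, had −0.0112 in the deproteinized condition and −0.00565 in vivo. The lowest hexamer in the deproteinized condition was TTTTTT, at −0.0538, with −0.0347 in vivo, and the lowest in vivo was AGGATC, at −0.0496, with −0.0388 in the deproteinized condition.

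Hexamers were ordered by their pyrimidines, a grouping chosen after the values had been seen. With 0, 1, 2, 3, 4, 5 and 6 pyrimidines, the mean was 0.0200, 0.0189, 0.00979, 0.00125, −0.00509, −0.0133 and −0.0267 in the deproteinized condition, and 0.00713, 0.0111, 0.00551, 0.000477, −0.00399, −0.0106 and −0.0229 in vivo. None of the 41 words made of pyrimidines alone was above 0 in either condition, whereas 84.2% of the 38 purine words were in the deproteinized condition and 63.2% in vivo.

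**Figure D4:**
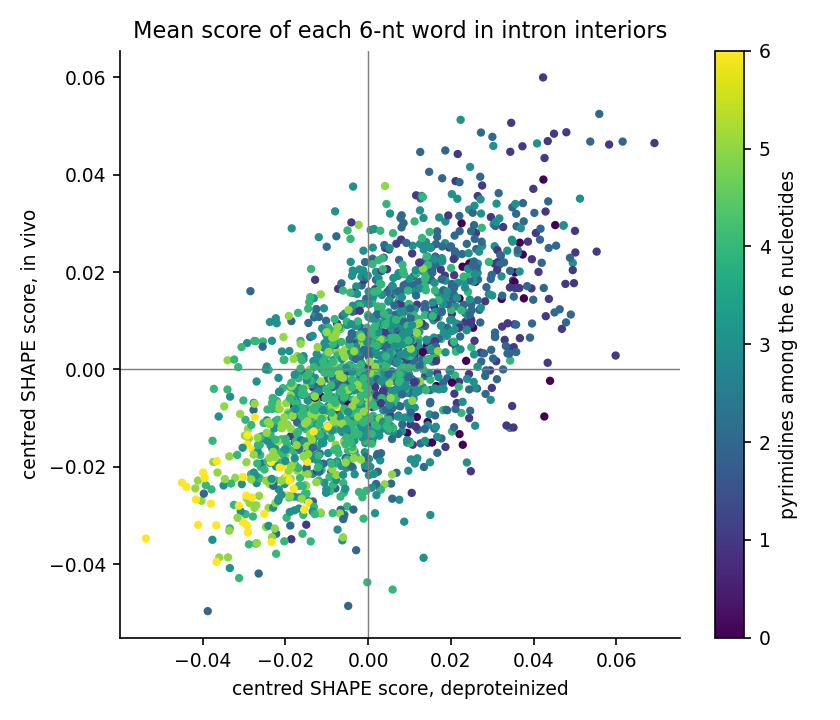
Each point is 1 of the 1803 hexamers in interiors of long introns, with its mean SHAPE score after subtracting the mean of each nucleotide in the deproteinized condition (x axis) and in vivo (y axis), coloured by its number of pyrimidines. Words of 6 pyrimidines all lie below 0 on both axes, and r across hexamers is 0.654.

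Stretches rich in U are known to promote splicing in plants. Runs of at least 6 U were found in the interior of 460 long introns (56.7%). They differed little from the 10 nt on each side, by −0.00650 ± 0.0807 in the deproteinized condition (n = 380) and −0.00627 ± 0.0934 in vivo (n = 242). After each nucleotide's mean was subtracted, the differences were −0.0193 and −0.0134. The sign in vivo was not stable, with 0.00399 in introns of 1000 nt or more and 0.000687 when runs of 5 U were counted too. A run of U was thus not more reactive than its flanks although U was above the interior mean as a single nucleotide.

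Base pairing was predicted from sequence alone with RNAplfold in windows of 150 nt with pairs up to 100 nt apart. Nucleotides with an unpaired probability of at least 0.5 averaged 0.394 in the deproteinized condition, and the other nucleotides 0.361, a difference of 0.0322 ± 0.0263 that was above 0 in 89.4% of 644 introns. In vivo the means were 0.366 and 0.346, the difference 0.0208 ± 0.0261 and its share above 0 78.6% of 476 introns. In the 312 long introns with both conditions, the difference was 0.0331 in the deproteinized condition and 0.0208 in vivo. With the limits set at 0.8 for unpaired and 0.2 for paired nucleotides it was 0.0562 and 0.0372.

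Within interiors that held at least 50 scored nucleotides each of exon and of pure intron, the exon of the gene was the more reactive. It averaged 0.381 in the deproteinized condition and the intron part 0.347, a difference of 0.0339 ± 0.0666 (n = 48) with 62.5% above 0. In vivo the averages were 0.363 and 0.321, a difference of 0.0422 ± 0.0428 (n = 43) with 81.4% above 0. Subtracting each nucleotide's mean left 0.0342 and 0.0427. Both sides of this comparison share an entry and its scale.

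The conditions were compared in the 312 long introns with at least 200 scored interior nucleotides in each. The interior averaged 0.375 in the deproteinized condition and 0.351 in vivo, a difference of 0.0243 ± 0.0540 (SD, n = 312) that was above 0 in 68.6% of introns. With the recurring score set to missing it was 0.0117, and in introns of 1000 nt or more 0.0444. Since scores are scaled within each entry and condition, a difference in level between conditions does not measure a difference in modification. Position −1 had 0.728 in the deproteinized condition and 0.751 in vivo (n = 285), position −2 had 0.548 and 0.456 (n = 283, difference 0.0913 ± 0.378, above 0 in 59.7%), and the branch A had 0.643 and 0.721 (n = 98, difference −0.0786 ± 0.460). Position −1 kept its excess over the interior, and the branch A that over its flanks, in both conditions. Over all long introns scored in vivo, the excess of −2 over the interior was 0.0931 as a mean and 0.0161 as a median (n = 434), was above 0 in 52.5% of introns, and averaged 0.0345 in introns of 1000 nt or more. Each difference between conditions was smaller than its SD over introns.

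Nucleotide by nucleotide, the profiles of the same interior resembled each other only weakly. Pearson's r between the deproteinized and the in vivo scores, over 300 or more interior nucleotides scored in both, averaged 0.182 ± 0.120 over 299 introns, with a median of 0.155 and quartiles of 0.101 and 0.248. It ranged between −0.0764 and 0.664, with 8 introns below 0 and 19 over 0.4. Replicates were merged in the scores used here, so r between replicates could not be computed over these interiors. The paper reports high average correlations between replicates for mRNAs above a minimum of RT-stops in the in vivo nuclear libraries. That average covers mRNAs chosen by depth and is not given for introns. How far error in the scores lowers r in these interiors is not known. Without the recurring scores the mean was 0.173 (n = 293). Introns with a larger share of recurring scores had a lower r, with a correlation of −0.519 across the 299 introns, in which both measures come from the same entries. Entries that TAIR10.1 does not annotate as introns had a mean r of 0.356 (n = 21). By content, the mean was 0.247 with an exon of the gene itself inside (n = 62), 0.184 with an exon of another gene only (n = 17) and 0.164 with no exon (n = 220).

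**Figure D5:**
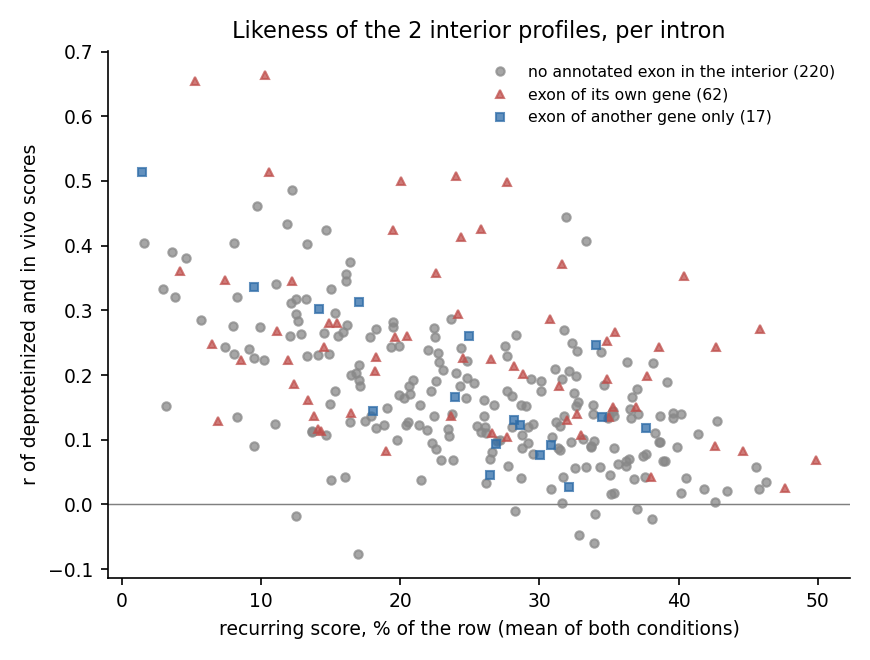
Each point is 1 of 299 long introns, with the mean share of its nucleotides at the recurring score (x axis, percent) and Pearson's r between its deproteinized and in vivo interior scores (y axis), marked by what TAIR10.1 annotates in the interior. The correlation across points is −0.519, and the 2 highest points, at 0.664 and 0.654, are interiors with an exon of their own gene.

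The longest introns with values in both conditions varied in level and at their sites. ABCG25, an exporter of abscisic acid, held an intron of 3388 nt with an interior of 0.382 in the deproteinized condition and 0.363 in vivo, and a score of 1 at −1 in both. The first intron of AT3G05350, a metallopeptidase gene, measured 3260 nt, of whose interior 88.0% was exon of another gene, and had 0.393 and 0.357 with 0.985 and 1 at −1. NRT1.1 (1724 nt) had 0.404 in the deproteinized condition and 0.289 in vivo, with 0 and 0.548 at −1. AT1G52190, a transporter of the major facilitator superfamily (1729 nt), had 0.375 and 0.333 with 1 at both −1 and −2 in both conditions.

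BIN2 and CPD, both genes of brassinosteroid biology, were among the 10 longest introns scored in both conditions. BIN2, the kinase that represses brassinosteroid signaling, held an intron of 2783 nt in which exon of the gene itself covers 32.3% of the interior. Its interior had 0.267 in the deproteinized condition, where the recurring score took 65.7% of nucleotides, and 0.307 in vivo, where it took 15.1%. CPD, a cytochrome P450 of brassinosteroid synthesis, held one of 1736 nt with 0.392 in the deproteinized condition and 0.331 in vivo, and −1 scored 1 and 0.334. The peroxidase gene AT3G32980 (1914 nt) had 0.373 and 0.268, with 1 and 0.699 at −1. AT4G12640, which encodes an RNA recognition motif protein (2167 nt, interior wholly exon of the gene in another transcript), had 0.393 and 0.342, with 0.473 and 0.159 at −1. In AT1G80610 (1659 nt) −1 scored 0 in the deproteinized condition and 0.0717 in vivo, so that the excess at −1 was not shared by every long intron.

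The introns whose profiles were most alike in both conditions mostly covered exonic sequence. They were AT3G05900, a neurofilament-like protein (r = 0.664, 522 nt), AT4G36648, a noncoding RNA (0.654, 797 nt), ABCF4, an ABC protein without a membrane domain (0.514, 767 nt), AT3G26450, of the polyketide cyclase family (0.513, 1248 nt), and GSA1, an enzyme of tetrapyrrole synthesis (0.508, 564 nt). All but AT3G26450 are not annotated as introns and were exon of their own gene over 100% of the interior. The interiors of AT3G26450 and AT3G05900 were 100% exon of another gene, counted on either strand. The least alike were SNRK2.7, a kinase of the SnRK2 family (r = −0.0764), AT2G39630 (−0.0592), the ribosomal protein gene AT4G14320 (−0.0479), AT4G33780 (−0.0223) and RPT2, which acts in phototropism (−0.0180). All 5 of these were annotated introns with no exon inside. Position −1 scored 0.794 in SNRK2.7 and 1 in the other 4 in the deproteinized condition. In vivo it scored 1 in SNRK2.7, AT4G33780 and RPT2, 0.695 in AT2G39630 and 0.378 in AT4G14320.

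Long introns in the leader of housekeeping genes, known in plants to raise expression, were looked up with introns of other well-studied genes in a list of 46 loci, and 3 loci held a member, all genes of translation elongation factor EF1A. Their 5′ splice sites are shown with the first intron nucleotides in capitals, from AT1G07920 (chr1:2454930-2454949, plus strand), AT1G07930 (chr1:2458338-2458357, plus strand) and AT1G07940 (chr1:2464674-2464693, minus strand).
AT1G07920: tctctgagGTaagcgttaac
AT1G07930: tgcgtgagGTtagcttttca
AT1G07940: attgacaaGCgtgtcattga
AT1G07920 and AT1G07930 are 5′UTR introns of 600 and 645 nt, whereas AT1G07940 is not annotated as an intron and 89.6% of its interior is exon of the gene. In AT1G07920, −1 and −2 both scored 1 in the deproteinized condition and in vivo, above interiors of 0.363 and 0.312. In AT1G07930, scored only in vivo, −1 had 0.0840, below the interior of 0.267, and −2 had 0.446, above it. AT1G07940, also only in vivo, had 0.449 at −1 and an interior of 0.455, with the recurring score at 75.8% of its nucleotides.

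The most and least reactive stretches of 30 nt were drawn from 155004 fully scored windows in 312 interiors, whose mean was 0.378 in the deproteinized condition and 0.346 in vivo. Windows were ranked by the condition in which they were lower, or higher for the least reactive, with 1 window per gene, so their level is what chose them. They are shown because they are the stretches on which both conditions concurred. The first 3 are the most reactive, the last 3 the least reactive, and capitals mark TGATGA, the letters of a C box, in the first.
AT4G29410 (chr4:14469027-14469056, minus strand): agctgTGATGAgaaagctaacacgtaagaa
RPL34 (chr1:26190541-26190570, plus strand): tgcttattgacggtcttgtgctggttaaga
AT5G01350 (chr5:146331-146360, minus strand): gtaggcttgtcctgattaaagacatgacgt
AT5G08180 (chr5:2632427-2632456, minus strand): tatatccgtgtacaattaagccgatgctct
BXL1 (chr5:20014415-20014444, minus strand): ttcaaaacataacaatctaaacgaaaattc
AT5G44380 (chr5:17880388-17880417, minus strand): ttttcttctcctatagttttgcattatata
The windows of AT4G29410, a ribosomal protein L28e gene, and of RPL34, ribosomal protein L34, averaged 0.801 and 0.715 in the deproteinized condition and 0.749 and 0.695 in vivo. That of AT5G01350 averaged 0.662 in the deproteinized condition and 0.733 in vivo. The least reactive windows averaged 0.133 and 0.127 in AT5G08180, 0.177 and 0.146 in BXL1, a beta-xylosidase, and 0.186 and 0.178 in AT5G44380, an FAD-binding berberine family protein. In AT5G08180, 22 of the 30 scores were 0 in the deproteinized condition and 16 in vivo. Of the 10% of windows with the highest means in the deproteinized condition, 24.9% were also among the highest 10% in vivo, and for the lowest 10% the share was 20.6%.

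The windows of AT4G29410 and AT5G01350 lie inside annotated small nucleolar RNAs (snoRNAs), AT4G08165 and AT5G00760, and the introns of RPL34 and AT5G08180 host such genes too. Small nucleolar RNAs guide modification of ribosomal RNA, and in plants many are cut out of introns of host genes or of longer transcripts. In all, 15 small RNA genes lay on the same strand in the interior of 10 long introns. For the 8 snoRNAs with at least 20 scored nucleotides in the deproteinized condition, the mean over genes was 0.557, with 0.482 in the rest of the same interiors, and 5 of 8 were above it. For the 8 in vivo the means were 0.490 and 0.419, and 7 of 8 were above. The highest in the deproteinized condition were AT5G01505 at 0.799 and AT5G01515 at 0.727, both in AT5G08180, a gene of the L7Ae/L30e family, and in vivo they had 0.573 and 0.508. The interior of AT5G08180 had 0.662 in the deproteinized condition, far over the upper quartile of 0.396 for long introns, and 0.459 in vivo. In AT1G04480, a ribosomal protein L14p/L23e gene, AT1G04273 had 0.503 in the deproteinized condition, below the 0.531 of the rest of its interior, and 0.452 in vivo, above its 0.335. AT1G09087, in RPL34, was at 0.381 and 0.321, below the 0.451 and 0.434 of the rest of its interior. The snoRNAs in AT4G31980 and in eIFiso4G1, a translation initiation factor gene, had at most 3 scored nucleotides each. Reads of a mature snoRNA and of its host intron cannot be told apart in these scores.

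Precursors of miRNAs lay in a pair of long entries, with the mature miRNAs in capitals: MIR157a in an entry of its own primary transcript (chr1:24913202-24913299, minus strand) and MIR156f in an intron of AT5G26146, a noncoding RNA (chr5:9136106-9136237, plus strand). TAIR10.1 does not annotate the MIR157a entry as an intron, and 28.3% of its interior is exon of the gene itself, as is 100% of the interior of the AT5G26146 intron. Both miRNA families silence SPL transcription factors, which promote the adult phase.
MIR157a: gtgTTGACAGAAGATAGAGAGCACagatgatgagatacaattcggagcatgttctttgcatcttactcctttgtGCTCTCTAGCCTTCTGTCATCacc
MIR156f: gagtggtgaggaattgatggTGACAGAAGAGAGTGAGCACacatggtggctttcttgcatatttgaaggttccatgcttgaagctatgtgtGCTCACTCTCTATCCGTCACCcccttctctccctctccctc
MIR157a averaged 0.332 in the deproteinized condition and 0.324 in vivo over its 98 nt, close to the 0.344 and 0.337 of the rest of the interior. Its 5p arm had 0.326 and 0.345, its 3p arm 0.330 and 0.358, and the stretch between them 0.337 and 0.308. The arms, which pair in the hairpin, thus averaged slightly below the stretch between them in the deproteinized condition and above it in vivo. The recurring score took 36.8% of the nucleotides of this entry in the deproteinized condition and 52.5% in vivo. No reading of structure is drawn from these small differences. MIR156f was scored over 54 of its 132 nt in the deproteinized condition only, at 0.441, with 0.378 in the 5p arm and 0.466 between the arms. The entry of 1985 nt at the MIR156a locus, which is not annotated as an intron and whose interior holds exon of another gene over 27.2%, had 0.355 in the deproteinized condition and 0.376 in vivo. A tRNA-Arg gene in the 5′UTR intron of AT3G12587, an oligosaccharyltransferase subunit gene, averaged 0.385 in vivo, with 0.367 in the rest of the interior.

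Poly(A) sites could be read a second time, since the authors also gave scores in windows around poly(A) sites from reads across those sites. Of these windows, 34 lay in long introns of 16 genes, all overlapping an exon of the same gene, 6 of them with values in the deproteinized condition and 34 in vivo. These scores run to 2 and were halved, and they share no scale with the intron entries. In TCTP, the translationally controlled tumor protein gene, the poly(A) windows averaged between 0.390 and 0.448 in vivo, and the same nucleotides between 0.3004 and 0.385 in the intron entry. In GSH1, the first enzyme of glutathione synthesis, the windows had 0.417 and 0.418, and the intron entry 0.489 and 0.498. Neither table was the higher one throughout, and AATAAA stood in windows of TCTP and GSH1 only.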

How the data were processed

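SHAPE reactivities are scores without a physical unit that the authors deposited per nucleotide. They checked and trimmed reads with FastQC 0.11.5 and cutadapt 1.14, mapped them with HISAT2 2.1.0 to TAIR10 with AtRTD2 isoforms, removed split reads, merged 2 biological replicates, and turned RT-stops of the NAI and control libraries into normalized scores. The formula of the score is not given in the sources used here. The study gives a lower bound on the reads per library and a minimum of RT-stops per nucleotide for genes, but the deposited scores carry no depth per intron or nucleotide, so precision is stated only as the SD over introns. A scaling within entries, inferred from the scores, makes levels relative to each entry and condition.

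Scores were used as deposited. Introns were placed on the RefSeq genome and annotation of TAIR10.1, and 4 long introns whose strand is unknown were left out wherever sequence was needed. The shares of introns with −1 or −2 above its flanks kept introns of unknown strand. Interiors needed 200 scored nucleotides. Motifs were searched on the transcript strand, and introns with several copies were averaged first. Calculations used Python 3.11.15, NumPy 2.4.6, Matplotlib 3.10.9 and ViennaRNA 2.7.2, and were tested on simulated data. Each condition is 1 profile, so no test was run.

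Introns, motifs and gene lists were chosen with earlier results of these data known. Named genes were the 10 longest introns scored in both conditions, the 5 highest and 5 lowest r, the 3 most and 3 least reactive windows, hosts of small RNA genes, and members of lists of leader introns, SR proteins, MADS box genes, heterochromatic introns and DCL1. Examples of splice and branch sites, the split by annotation and the poly(A) windows were chosen after values had been seen. Alternatives covered scores of 0 or the recurring score as missing, medians, introns in both conditions, 1 intron per gene, interiors starting 50 or 200 nt from the ends (the last with 100 scored nucleotides), length, GT–AG ends, other motifs, flanks and folding settings, and, chosen after seeing the data, centring per nucleotide, interiors without exons and leaving out hosts of small RNA genes. A value counted as moved when it changed by more than 1.5 times.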

Additional observations from a re-analysis of the deposited data

How the results depend on the processing

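Of 272 alternative values for 22 results, 245 stayed within 1.5 times the reported value with the same sign, 25 moved further and 2 changed sign. Medians over introns moved −1 minus interior to 0.590 in the deproteinized condition and 0.588 in vivo, −2 minus interior in vivo to 0.0161, −1 at AGGTAA junctions minus copies to 0.681 and 0.748, and the branch A minus copies to 0.433 and 0.577. Introns of 1000 nt or more gave 0.0345 at −2 in vivo. The wider branch motif YTNAY gave 0.198 in vivo. Interior means differed between conditions by 0.0117 without recurring scores and by 0.0444 in introns of 1000 nt or more. Unpaired minus paired nucleotides gave 0.0562 in the deproteinized condition and 0.0372 in vivo with limits of 0.8 and 0.2. U runs minus flanks moved most. In the deproteinized condition they gave −0.0144 as a median, −0.0153 in introns of both conditions, −0.00179 at 1000 nt or more, −0.0193 after centring and −0.0120 without exons inside. In vivo they gave −0.000106 with scores of 0 missing, −0.0216 as a median, −0.0101 in introns of both conditions, −0.00163 more than 200 nt from the ends, −0.0208 for runs of 8, −0.0134 after centring, −0.00963 without exons inside, and, with the sign turned, 0.00399 at 1000 nt or more and 0.000687 for runs of 5. The cause was not tested.

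No paired analysis was possible because each condition is 1 merged profile. Depth per intron is unknown and replicates cannot be left out, so differences between conditions or single nucleotides have no measured error. Scores of 0 and 1 mark the ends of each entry's own scale.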
